A study of Mus musculus with 12 samples.

Results

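The comparison described here is that of Rspo2 alone with BSA in C57MG cells, a mouse mammary epithelial cell line. It uses 6 of the 12 arrays of the series, 3 with RNA of cells treated with Rspo2 and 3 with RNA of control cells, chosen by their labelled treatment and not by any measured value. Rspo2 was the recombinant human protein at 100 ng/ml, and control cells received bovine serum albumin (BSA), the carrier of the recombinant proteins. All cells of these groups, and those of the other groups that received recombinant mouse Wnt3a at 100 ng/ml or both proteins, were grown with serum and insulin and then held for 24 h in plain medium with the additions. The 3 samples of a group were separate monolayers of the same line, so p-values measure the spread between dishes.

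R-spondins are secreted proteins that bind the receptors Lgr4, Lgr5 and Lgr6 and the membrane ubiquitin ligases Znrf3 and Rnf43. These ligases remove Wnt receptors from the cell surface, and R-spondins oppose them, so that a cell responds more strongly to the Wnt proteins that are present. The response is read in feedback genes of β-catenin signaling such as *Axin2*, *Tcf7*, *Apcdd1*, *Notum*, *Znrf3* and *Rnf43*. C57MG cells have long been used to follow the changes of shape and gene expression that Wnt proteins cause in mammary cells.

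Signals are given as log2 values from which the array's own 75th percentile was subtracted, so 0 is the level of that percentile, and the levels of different probes are not compared. A probe was counted when the scanner software marked it well above background on all 6 arrays, which 20554 probes were; 51.3% to 64.2% of probes had that mark on each of the 6 arrays. Changes were tested with limma in a fit of all 12 arrays, and p-values were adjusted by the Benjamini-Hochberg method. The BSA arrays shared slide 1 with Rspo2 replicate 1, while Rspo2 replicates 2 and 3 were on slide 2. A change measured within slide 1, Rspo2 replicate 1 less the mean of BSA, is therefore given beside the principal results, as is the adjusted p of a fit with slide as a term, which rests on the same difference. Among epithelial markers, *Krt14*, *Krt17*, *Trp63* and *Acta2* were above background on all 6 arrays, whereas of 9 luminal markers *Krt8* alone was. *Epcam* was above background on 1 array and *Cdh1* on none, and the basal keratin *Krt5* on 3 BSA arrays and 1 Rspo2 array. Of 10 mesenchymal markers 7 were above background throughout, among them *Vim*, *Col1a1*, *Fn1* and *Pdgfrb*. The labelled mammary epithelium thus lacked most luminal markers here. Markers of other cell types were mixed: *Ptprc* and *Itgam* of leukocytes, *Kdr* of endothelium and *Plin1* of adipocytes were above background on no array, whereas *Cd68*, *Cdh5* and *Fabp4* of the same cell types were so on all 6, and *Csf1r* on 3 BSA and 2 Rspo2 arrays.

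With Rspo2, several secreted proteins of innate immunity fell by more than 2-fold. *Lcn2*, which encodes the iron-siderophore binding protein lipocalin 2, fell about 20.2-fold, the complement component *C3* 4.58-fold, the hemoglobin-binding protein *Hp* 6.96-fold and the neutrophil-attracting chemokine *Cxcl5* 2.6-fold, and the acute phase protein *Saa3* fell from well above background on every BSA array to no array. The call of *Hp* was lost without Rspo2 replicate 3 and with slide as a term. Only 12 probes rose by 2-fold or more, led by *Il33*, a cytokine of the interleukin-1 family, at 5.1-fold. In all, 53 of the 20554 probes (0.258%) passed an adjusted p of 0.05 with 2-fold change or more, 12 higher and 41 lower. In 52 of the 53 the 3 arrays of each group did not overlap, as in 45.5% of all 20554 probes. The single exception was *Slc16a8*, named after its values were seen.

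The promoters of *Lcn2*, *Saa3* and *C3* are shown because these genes were among those with the largest falls. They are RefSeq promoters of build GRCm38.p6, from 250 bases before to 50 bases after the start of transcription, written 5′ to 3′ on the strand of the gene. Capitals mark matches to a C/EBP motif (TTGCNNAA) and, in *Saa3*, to an interferon-response motif (GAAANNGAA), searched on both strands together with a STAT motif (TTCNNNGAA), a TCF/LEF motif (CTTTGAT) and the κB motif.
Lcn2, chr2:32387690-32387989, minus strand: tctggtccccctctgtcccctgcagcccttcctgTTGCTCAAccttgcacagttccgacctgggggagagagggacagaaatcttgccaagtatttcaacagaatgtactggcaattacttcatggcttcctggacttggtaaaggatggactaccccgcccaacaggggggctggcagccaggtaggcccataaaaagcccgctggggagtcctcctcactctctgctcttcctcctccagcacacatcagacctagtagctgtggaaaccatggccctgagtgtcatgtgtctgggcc
Saa3, chr7:46715627-46715926, minus strand: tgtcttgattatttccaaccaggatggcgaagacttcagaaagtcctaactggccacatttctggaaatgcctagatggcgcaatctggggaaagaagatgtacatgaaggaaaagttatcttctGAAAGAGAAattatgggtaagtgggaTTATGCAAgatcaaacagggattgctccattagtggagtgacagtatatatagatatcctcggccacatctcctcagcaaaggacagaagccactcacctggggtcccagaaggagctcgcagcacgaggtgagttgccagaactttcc
C3, chr17:57228087-57228386, minus strand: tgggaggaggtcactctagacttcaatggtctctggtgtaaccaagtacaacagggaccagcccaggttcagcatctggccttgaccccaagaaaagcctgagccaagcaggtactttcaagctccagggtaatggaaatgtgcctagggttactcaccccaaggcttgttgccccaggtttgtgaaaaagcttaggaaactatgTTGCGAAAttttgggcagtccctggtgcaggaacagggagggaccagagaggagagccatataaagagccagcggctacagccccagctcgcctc

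Counted from the start of transcription, the match to the C/EBP motif began at position -216 in *Lcn2*, at -99 in *Saa3* and at -45 in *C3*. The motif was not particular to genes that fell, since a promoter of *Il33*, which rose, held a match from position -85. This motif stood in 10.8% of 32851 promoters of that length, and in 4 of the 28 promoters of the 24 genes that fell at least 2-fold or were lost from detection and had a sequence. The STAT motif was found in 2 of these 28, against 8.3% of all promoters, and the interferon-response motif in 2, against 8.56%. The κB motif was found in 4 of the 28, against 4.51% of all promoters. Its 4 genes, *Ssb*, *Rnpc3*, *Bcl10* and *Hnrnpr*, each had a brighter probe that was not called lower. That of *Ssb* changed by -0.59 (adjusted p = 0.128), against -1.08 at the dimmer probe, and those of the other genes are given with the comparison of probes. The TCF/LEF motif was in none of the 28, against 3.73% of all promoters. These are matches of letters in short windows and not sites of binding. Genes with a symbol and a probe lowered 2-fold numbered 32, so some of them had no sequence here. Promoters of *Cxcl5*, *Ccl2*, *Oas2* and *Hp* were not in the sources used here, and the motif counts are not read for these genes.

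On the BSA arrays *Lcn2* had log2 signals of 1.78, 2.03 and 1.996, and on the Rspo2 arrays -2.40, -2.56 and -2.25. The groups were far apart, and the array of slide 1 lay between the other Rspo2 arrays. The log2 change was -4.34 ± 0.13 (SE, adjusted p = 7.16e-08), and it was -4.33 within slide 1 (adjusted p = 6.57e-05 with slide as a term).

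*C3*, the central component of complement, had log2 signals of 1.27, 1.13 and 1.19 with BSA and of -0.91, -0.87 and -1.21 with Rspo2. It fell by 2.20 on the log2 scale (SE 0.16, adjusted p = 9.83e-05), and the change was -2.11 within slide 1 (adjusted p = 0.00978 with slide as a term). *Hp* fell from -1.19, -0.90 and -0.85 to -4.13, -2.89 and -4.31. Here Rspo2 replicate 2 was clearly higher than the other replicates of its group, and the log2 change of -2.80 carried an SE of 0.53 (adjusted p = 0.0143, and 0.131 in the fit with slide). Without Rspo2 replicate 3 the change was -2.53 and the adjusted p 0.0583. *Saa3* was well above background on the 3 BSA arrays, at -2.87, -2.64 and -2.67, and on none of the Rspo2 arrays. Measured against the lowest signals well above background it was at least 5.16-fold lower (adjusted p = 0.00283). On slide 1 the array with Rspo2 had *Saa3* at -6.39, below all 3 BSA arrays.

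The chemokines were bright probes. *Cxcl5* had log2 signals of 5.96, 5.97 and 6.01 with BSA and of 4.54, 4.61 and 4.65 with Rspo2, a change of -1.38 ± 0.08 (SE, adjusted p = 2.52e-05; -1.44 within slide 1). *Ccl7*, which attracts monocytes, fell from 4.56, 4.72 and 4.67 to 3.05, 3.27 and 3.65. Its brighter probe changed by -1.33 ± 0.14 (SE, adjusted p = 0.00124) and a second probe by -1.38. *Ccl2*, a related monocyte chemokine, fell from 5.42, 5.46 and 5.43 to 4.22, 4.32 and 4.68, by 1.03 on the log2 scale (SE 0.12, adjusted p = 0.00182). For these 3 genes the Rspo2 array of slide 1 was the lowest of its group, and the change within slide 1 was -1.60 for *Ccl7* and -1.21 for *Ccl2*.

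Of receptors and regulators, *Tlr2*, a sensor of bacterial lipoproteins, had log2 signals of 1.63, 1.46 and 1.45 with BSA and of 0.63, 0.65 and 0.50 with Rspo2. Its change of -0.92 ± 0.08 (SE, adjusted p = 0.000382) was just under 2-fold. *Nod2*, a sensor of bacterial cell wall fragments named here after its values were seen, changed by -1.13 (adjusted p = 0.000152; -1.01 within slide 1). *Zc3h12a*, an RNase that degrades cytokine mRNAs, fell from -1.29, -1.44 and -1.32 to -2.20, -2.88 and -3.10. Its log2 change was -1.38 ± 0.19 (SE, adjusted p = 0.00441) but -0.85 within slide 1 (adjusted p = 0.0528 with slide as a term). *Il6* itself fell from -1.27, -1.53 and -1.54 to -2.32, -2.24 and -2.13, by 0.78 on the log2 scale (SE 0.09, adjusted p = 0.0023). *Osmr*, the receptor of oncostatin M, a cytokine of the same family, changed by -0.55 ± 0.07 (SE, adjusted p = 0.00438).

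**Figure D1:**
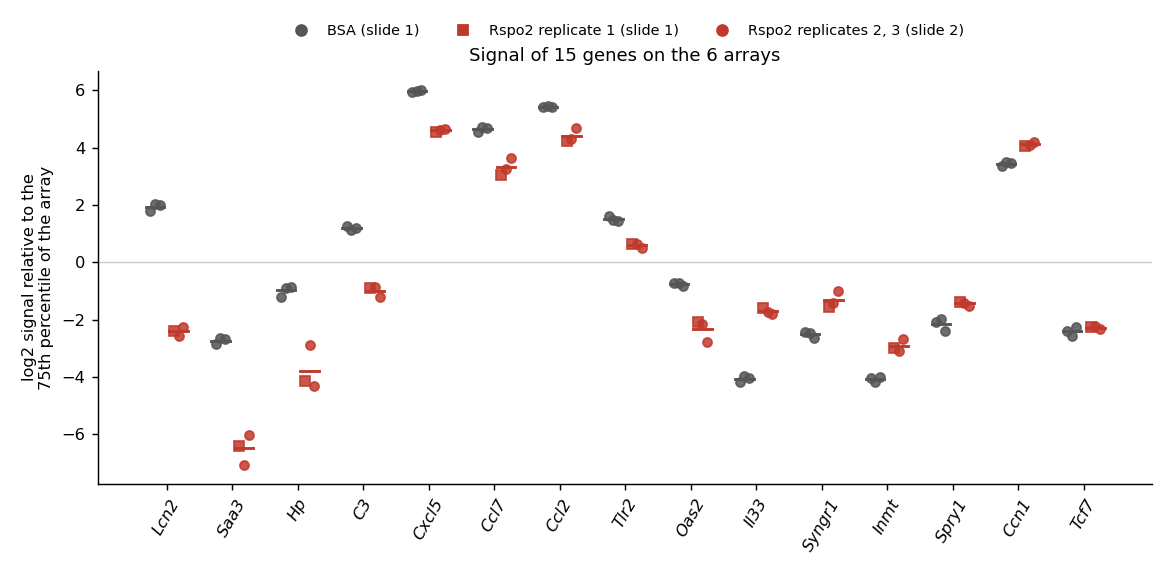
The log2 signal less the 75th percentile of each array is plotted for 15 genes, with 1 point per array, grey for BSA and red for Rspo2 (square for the Rspo2 array that shared slide 1 with BSA) and a bar at each group mean. The groups are apart for every gene shown except *Tcf7*, and the widest gap is that of *Lcn2*, with 1.78 to 2.03 against -2.56 to -2.25; the *Saa3* signals with Rspo2 were not well above background.

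Many smaller falls lay in lists of related genes. Members named beyond the 4 with the largest change in a list were chosen after their values were seen. Each gene was represented by its brightest probe, and 11678 genes were above background on all 6 arrays. Of these 19.9% were called at an adjusted p under 0.05, 14.9% higher and 5% lower, and their median log2 change was 0.06. Among CC and CXC chemokines, listed together with the CX3C chemokine *Cx3cl1*, 6 of 11 members fell and 0 rose, with a median log2 change of -0.38. Besides the genes already named, *Cxcl10* changed by -0.65 ± 0.09 (SE, adjusted p = 0.00451), *Ccl5* by -0.56 (adjusted p = 0.0236) and *Cx3cl1* by -0.38 (adjusted p = 0.0313). With each array left out in turn 4 to 6 of the 11 fell, the fewest without any 1 of the BSA arrays, and with slide as a term 3 were called, *Cxcl5*, *Ccl7* and *Ccl2*.

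Of 22 NF-κB subunits, feedback and target genes, 10 fell and none rose (median log2 change -0.36). The falls included the inhibitor *Nfkbie* (-0.54, adjusted p = 0.0163) and its relatives *Nfkbiz* (-0.61, adjusted p = 0.00783) and *Bcl3* (-0.65, adjusted p = 0.00868). Also lower were the subunit *Relb* (-0.37, adjusted p = 0.0408), and *Traf1*, *Tnip1*, *Tnfaip3* and *Tnfrsf9*, adaptors, regulators and a receptor of that pathway. For the subunits *Rela* and *Nfkb1* the log2 changes were -0.03 (adjusted p = 0.841) and -0.58 (adjusted p = 0.11). Within slide 1, 20 of the 22 were lower with Rspo2, but with slide as a term 1 of the 22 was called, *Il6*. The list is not uniform: *Vcam1* and *Sod2*, targets of NF-κB, changed by -0.12 and -0.03 with adjusted p of 0.487 and 0.842. Without BSA replicate 1, BSA replicate 2 or Rspo2 replicate 3 the count was 5, without BSA replicate 3 or Rspo2 replicate 1 it was 6, and without Rspo2 replicate 2 it was 7.

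Interferon-stimulated genes made up the longest list of falls: 19 of 40 fell and 1 rose, with a median log2 change of -0.32. *Oas2*, which makes the activator of an antiviral RNase, had log2 signals of -0.73, -0.73 and -0.84 with BSA and of -2.09, -2.15 and -2.77 with Rspo2. It changed by -1.57 ± 0.15 (SE, adjusted p = 0.000701), and by -1.32 within slide 1. *Mx2*, an antiviral GTPase, fell from -1.21, -1.61 and -1.64 to -2.50, -2.53 and -2.67, by 1.08 on the log2 scale with an SE of 0.32 (adjusted p = 0.0433), a call that was lost with any 1 of the 6 arrays left out (adjusted p from 0.0682 to 0.133). *Irf9*, a transcription factor of the interferon response, had log2 signals of -0.26, -0.27 and -0.23 with BSA and of -0.78, -0.69 and -0.82 with Rspo2, with no overlap. Its change was -0.51 (adjusted p = 0.00778). The member that rose was *Isg20*, an exonuclease, by 0.62 (SE 0.12, adjusted p = 0.0144). Within slide 1, 31 of the 40 were lower with Rspo2, but with slide as a term 1 of the 40 was called, *Oas2*. The count of falls was 8 without Rspo2 replicate 3, 9 without BSA replicate 1 or 3, 12 without Rspo2 replicate 1 and 13 without either of the remaining arrays.

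Of 10 complement genes 4 fell and none rose (median -0.28): *C3*, the C1 proteases *C1ra* (-0.37, adjusted p = 0.0436) and *C1s1* (-0.41, adjusted p = 0.017), and their inhibitor *Serping1* (-0.73, adjusted p = 0.00898). Of 14 acute phase proteins (median 0.01) 3 fell, *Lcn2*, *Hp* and the soluble pattern receptor *Ptx3* (-0.29, adjusted p = 0.0374), and none rose. Of 12 genes of interleukin-6 and oncostatin M signaling 2 fell, *Osmr* and the transcription factor *Cebpd* (-0.47, adjusted p = 0.0175), while *Stat3* and *Il6st* changed by -0.44 and -0.26 with adjusted p of 0.216 and 0.277. Collagens and matrix genes had 6 falls and 1 rise among 31 (median -0.11). The microfibril protein *Fbn1* changed by -0.78 (adjusted p = 0.00982), tenascin C, *Tnc*, by -0.71 (adjusted p = 0.0221), *Col1a1* by -0.47 (adjusted p = 0.0197) and *Bgn*, the proteoglycan that rose, by 0.42 (adjusted p = 0.0356). Between 2 and 4 of the matrix genes fell with an array left out, and 2 to 4 of the complement genes. The rise of *Bgn* lost its call with any 1 of the 6 arrays left out. It was also lost after quantile normalization, with which 8 matrix genes fell. With slide as a term no matrix gene was called and 2 complement genes were, *C3* and *Serping1*.

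Some markers of other cell types moved with these lists. The 4 endothelial markers summed to 2.43 to 2.60 times the 75th percentile with BSA and to 1.85 to 1.89 times with Rspo2. Nearly all of this sum was *Cdh5*, which had 2610 units with BSA and changed by -0.41 (adjusted p = 0.0116). *Pecam1*, *Kdr* and *Tek* had 17.6, 13.2 and 9.16 units with BSA, and *Kdr* was above background on no array. The 10 mesenchymal markers summed to 280.2 to 292 with BSA and to 258 to 273 with Rspo2, and *Thy1* and *Lum* were above background on no array. The brightest of them, *Vim* and *Col1a1*, changed by 0.15 (adjusted p = 0.208) and -0.47 (adjusted p = 0.0197). The adipocyte sum went the other way, from 0.49 to 0.58 with BSA to 0.68 to 0.78 with Rspo2. Most of this sum was *Fabp4* (515 units with BSA), whose change of 0.41 was not called (adjusted p = 0.0531). *Plin1* and *Cidec* were above background on no array, and *Adipoq* on 1 array of each group. The leukocyte sums, 0.33 to 0.37 and 0.36 to 0.44, overlapped. The part of these shifts in the results on collagens was not tested. In RNA of whole monolayers, fewer cells that express a gene and less of its RNA per cell cannot be told apart.

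**Figure D2:**
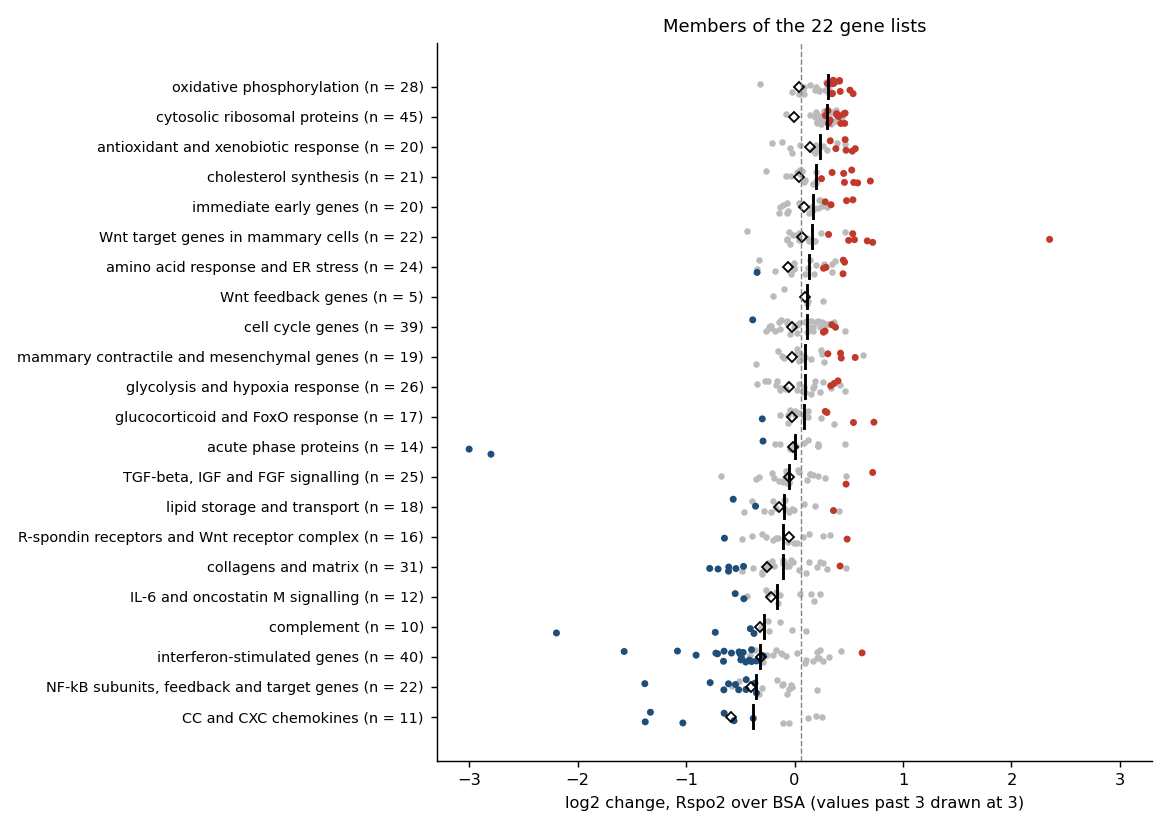
Each point is a gene above background on all 6 arrays, placed by its log2 change with Rspo2 over BSA in 1 of 22 lists, red or blue where it rose or fell with an adjusted p under 0.05; black bars are list medians, open diamonds the medians after quantile normalization, and the dashed line is the median of all 11678 genes (changes past 3 are drawn at 3). Chemokines, NF-κB genes, interferon-stimulated genes and complement lie lowest under both scalings, at medians from -0.38 to -0.28 with the 75th percentile scaling, whereas the ribosomal and oxidative phosphorylation lists return to medians of -0.00 and 0.04 after quantile normalization.

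Few genes rose by 2-fold or more. *Il33* had log2 signals of -4.19, -3.96 and -4.02 with BSA and of -1.59, -1.75 and -1.79 with Rspo2, with no overlap and the array of slide 1 the highest. Its change was 2.35 ± 0.09 (SE, adjusted p = 4.58e-07), and it was 2.47 within slide 1 (adjusted p = 6.57e-05 with slide as a term). *Rmrp*, the RNA of a ribonuclease that processes ribosomal RNA, rose from -2.93, -3.63 and -3.62 to -1.97, -1.80 and -1.66, a change of 1.59 ± 0.17 (SE, adjusted p = 0.00119). *Inmt*, a methyltransferase of indole amines, rose from -4.02, -4.17 and -4.02 to -2.98, -3.10 and -2.69, by 1.15 (SE 0.11, adjusted p = 0.000858), and 1.09 within slide 1 (adjusted p = 0.0435 with slide as a term). *Syngr1*, a protein of synaptic vesicles, rose from -2.44, -2.47 and -2.64 to -1.55, -1.43 and -1.0003. Its 2 probes changed by 1.19 (adjusted p = 0.00617) and by 0.76 (adjusted p = 0.00561). The homeodomain protein *Hopx* and the axonal transport protein *Fez1* changed by 1.24 and 1.06 (adjusted p = 0.00253 and 0.00338). Within slide 1 *Rmrp*, *Syngr1*, *Hopx* and *Fez1* rose by 1.42, 0.97, 1.02 and 0.71, but none of them was called with slide as a term. *Prr32*, *A730081D07Rik* and *1700016C15Rik*, with changes of 1.34, 1.20 and 1.03, lost their calls without any 1 of the BSA arrays, and *A730081D07Rik* and *1700016C15Rik* also without Rspo2 replicate 2 or 3. All 12 probes raised 2-fold had signals under 1000 units, with a median of 132 units, against 987 units for all probes counted.

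The rises under 2-fold with the smallest p-values included several enzymes. *Adh1*, an alcohol dehydrogenase, had log2 signals of -3.20, -3.06 and -3.03 with BSA and of -2.12, -2.22 and -2.06 with Rspo2, a change of 0.96 ± 0.10 (SE, adjusted p = 0.000858; 0.98 within slide 1). *Aspa*, which splits N-acetylaspartate, rose from -0.98, -1.05 and -1.04 to -0.37, -0.12 and -0.05, by 0.84 (SE 0.10, adjusted p = 0.00181). *Insc*, an adaptor in the orientation of the mitotic spindle, rose from -1.06, -0.95 and -0.95 to -0.32, -0.44 and -0.42, by 0.60 (SE 0.07, adjusted p = 0.00179). For each of these 3 genes a second probe rose too, by 0.84, 0.77 and 0.63, and each of the 3 first-named probes was called with slide as a term too. *Mgp*, an inhibitor of calcification, *Rgcc*, a cell cycle regulator, *Fam180a* and *Gfod1* rose by 0.77, 0.88, 0.81 and 0.63 (adjusted p = 0.00271, 0.00283, 0.00338 and 0.00182), with no overlap between groups. Within slide 1 they rose by 0.67, 0.71, 0.83 and 0.63, but none of them was called with slide as a term. A second, dimmer probe of *Gfod1* changed by -0.41 (adjusted p = 0.444).

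The genes by which Wnt signaling is usually read did not pass the test with Rspo2 alone. Of 14 feedback genes 5 were above background on all 6 arrays, and 0 of 5 were called, also with each array left out. *Tcf7*, a transcription factor of the pathway, had log2 signals of -2.39, -2.56 and -2.25 with BSA and of -2.26, -2.22 and -2.34 with Rspo2, which overlap. Its change was 0.12 ± 0.12 (SE, adjusted p = 0.511). The changes of *Znrf3*, *Apcdd1*, *Notum* and *Rnf43* were 0.26 (SE 0.20), 0.12 (SE 0.11), -0.10 (SE 0.07) and -0.20 (SE 0.20), with adjusted p of 0.365, 0.497, 0.389 and 0.509. *Axin2* was well above background on none of the BSA, Rspo2 or Wnt3a arrays and on all 3 of the combination. *Nkd1*, *Nkd2*, *Lef1*, *Dkk1*, *Sp5*, *Wif1* and *Tnfrsf19* were well above background on none of the 6 arrays, and *Lgr5* on 2 BSA arrays only.

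Among receptors, *Lgr4* and *Lgr6* were detected on all 6 arrays. *Lgr6* rose from -1.97, -1.83 and -1.97 to -1.54, -1.37 and -1.41, by 0.49 (SE 0.11, adjusted p = 0.0212), and 0.38 within slide 1 (adjusted p = 0.298 in the fit with slide). The call of *Lgr6* was lost without BSA replicate 1, BSA replicate 3, Rspo2 replicate 2 or Rspo2 replicate 3 (adjusted p from 0.0566 to 0.0767). *Lgr4* changed by 0.08 (adjusted p = 0.6). *Kremen1*, a receptor of the Wnt antagonist Dkk1, fell by 0.65 (SE 0.16, adjusted p = 0.0267) at a dim probe of 82.3 units. The other 14 of 16 detected receptors and partners were not called: *Lrp5* changed by -0.48, *Lrp6* by 0.32, *Fzd1* by -0.39, *Ctnnb1* by -0.30 and *Sdc4* by -0.26, with adjusted p from 0.0768 to 0.589, and the remaining *Fzd* genes between -0.17 and 0.13. After quantile normalization *Ctnnb1*, at a bright probe of 22663 units, was called lower as well, at -0.52 (adjusted p = 0.0337). Its change within slide 1 was -0.17 (adjusted p = 0.581 with slide as a term). *Fzd3*, *Fzd9* and *Fzd10* were above background on no array, and *Kremen2* on 1.

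A wider list of 22 genes taken as Wnt targets in mammary cells had 7 rises and 0 falls (median 0.16), beside 14.9% of all genes that rose and 5% that fell. It was written with the study in view and holds genes that the study reported from these same arrays, *Il33* and *Spry1* among them. Nothing is therefore read from that count. Besides *Il33*, *Spry1*, an inhibitor of growth factor receptor signaling, had log2 signals of -2.08, -1.99 and -2.39 with BSA and of -1.38, -1.41 and -1.52 with Rspo2, a change of 0.72 ± 0.10 (SE, adjusted p = 0.00522). *Ccn1*, a secreted matrix-associated protein, rose from 3.36, 3.50 and 3.48 to 4.05, 4.11 and 4.20, by 0.67 (SE 0.08, adjusted p = 0.00222). Neither group pair overlapped. The ephrin *Efnb2*, the transcription factor *Klf5*, endothelin 1, *Edn1*, and *Ccn2* rose by 0.55, 0.54, 0.50 and 0.31 (adjusted p = 0.028, 0.0229, 0.0132 and 0.0455). With each array left out 3 to 6 of the 22 rose, and with slide as a term 1 did, *Il33*.

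Rises below 2-fold were numerous and partly followed signal level. At any size 3573 of the 20554 probes (17.4%) had an adjusted p under 0.05, 2439 higher (11.9%) and 1134 lower (5.52%), and 7408 had an unadjusted p under 0.05. The higher probes were brighter, with a median signal of 3815 units against 499 units of the lower ones. Split into 5 bins by signal, the probes had a median log2 change of -0.13 in the dimmest bin, -0.06, -0.00 and 0.09 in the following ones, and 0.23 in the brightest. The 95th percentile of the probes was 4.14 to 4.24 on the BSA arrays and 4.36 to 4.52 on the Rspo2 arrays. After quantile normalization, which gives every array the same distribution, the medians of the bins lay between -0.01 and 0.03. The calls were then 1445 higher and 1122 lower, that is 56.3% higher in place of 68.3%, and 35.5% were higher with a 75th percentile computed from the probes that all 12 arrays detected.

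**Figure D3:**
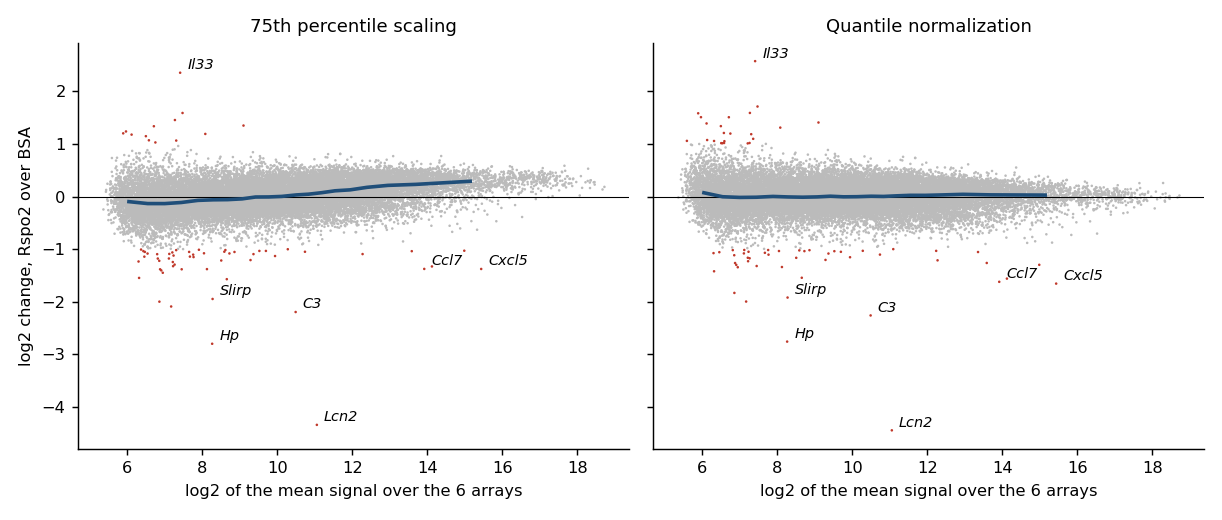
The log2 change with Rspo2 over BSA is plotted against the log2 mean signal for the 20554 probes, with the 75th percentile scaling on the left and quantile normalization on the right; red points lie at 2-fold or beyond whether or not they passed the test, and the blue line joins medians of 20 groups of equal size. The line rises with signal on the left (bin medians from -0.13 to 0.23) and is level on the right, while *Lcn2*, *Hp*, *C3* and *Il33* keep their places.

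Lists of bright genes followed this pattern. Of 45 cytosolic ribosomal proteins 12 rose and none fell, with a median log2 change of 0.30, and of 28 oxidative phosphorylation genes 12 rose (median 0.31). After quantile normalization the medians were -0.00 and 0.04, with 0 and 2 rises. *Rpl6*, for example, changed by 0.47 (adjusted p = 0.0176) and by 0.15 after quantile normalization (adjusted p = 0.218). With single arrays left out the counts of rises ran from 0 to 26 and from 0 to 14.

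Cholesterol synthesis had 8 rises and 0 falls among 21 genes (median 0.20, and 0.04 after quantile normalization), and 6 rises were still called after quantile normalization, against 2 falls. *Mvk*, mevalonate kinase, rose from 2.50, 2.74 and 2.62 to 3.24, 3.27 and 3.45, by 0.70 (SE 0.12, adjusted p = 0.0122), and by 0.55 after quantile normalization (adjusted p = 0.0123). *Fdft1*, squalene synthase, changed by 0.58 (adjusted p = 0.00578), *Fdps* by 0.55 (adjusted p = 0.0106) and *Nsdhl* by 0.53 (adjusted p = 0.00847). With slide as a term none of the 21 was called, and 3 to 8 rose with an array left out, the fewest without Rspo2 replicate 3. Antioxidant and xenobiotic genes had 6 rises and 0 falls among 20, with *Gsta4*, *Aldh3a1* and *Gstm1* at 0.56, 0.53 and 0.47 (adjusted p = 0.0279, 0.0279 and 0.0173), and 4 rises against 2 falls after quantile normalization. No antioxidant gene was called without BSA replicate 3 or Rspo2 replicate 3. Of all genes 14.9% rose and 5% fell, and in the brightest of the 5 signal bins 1110 of 4111 probes rose and 68 fell. After quantile normalization 199 probes of that bin rose and 242 fell.

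Other lists held 1 to 5 rises. Immediate early genes had 4 rises among 20 (*Ier2* 0.54, *Zfp36* 0.48 and *Egr1* 0.34, adjusted p = 0.0175, 0.0281 and 0.0292; *Dusp1* 0.28, adjusted p = 0.0331), and no member was called without BSA replicate 1, BSA replicate 3 or Rspo2 replicate 3. Cell cycle genes had 4 rises and 1 fall among 39, the fall being *Mki67* (-0.39, adjusted p = 0.04), and *Ccnd1* changed by 0.46 without passing the test (adjusted p = 0.0628). No cell cycle gene was called without BSA replicate 2 or 3 or without Rspo2 replicate 2 or 3. Contractile and mesenchymal genes had 4 rises among 19, with *Tpm1* at 0.56 (adjusted p = 0.0161) and *Acta2* at 0.43 (adjusted p = 0.0159), which were 0.26 and 0.07 after quantile normalization and no longer called. Amino acid response and ER stress genes had 5 rises and 1 fall among 24, glycolysis and hypoxia genes 3 rises among 26, lipid genes 1 rise and 2 falls among 18, and TGF-β, IGF and FGF genes 2 rises among 25, *Spry1* and the activin subunit *Inhba* (0.48, adjusted p = 0.027). These counts stand beside 14.9% of all genes that rose and 5% that fell. After quantile normalization cell cycle genes had 0 rises and 5 falls, and amino acid response and ER stress genes 1 rise and 3 falls. Glycolysis and hypoxia genes then had 1 rise and 2 falls, and immediate early genes 3 rises and 1 fall. Lipid genes had 1 rise and 1 fall, TGF-β, IGF and FGF genes 3 rises, and contractile and mesenchymal genes 1 rise. The basal markers summed to 133 to 141 with BSA and 171 to 193 with Rspo2, a sum mostly of *Acta2* (132160 units with BSA, against 10835 for *Krt14*). *Krt14*, *Krt17* and *Trp63* changed by 0.06, 0.14 and 0.14 and were not called. *Krt5*, above background on 1 Rspo2 array, changed by -0.84 (adjusted p = 0.0212). The part of these markers in the contractile list was not tested.

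How far the calls depend on the slide and on single arrays differed between large and small changes. Of the 53 probes called at 2-fold or more, 52 had Rspo2 replicate 1 outside the range of the 3 BSA arrays of its own slide, but that array is also part of the mean. The median size of these changes was 1.20 on the log2 scale over all arrays and 1.09 within slide 1. Of the 53 probes, 37 (8 higher and 29 lower) stayed called with each of the 6 arrays left out, and 22 with slide as a term. Of the 3520 probes called below 2-fold, 294 (134 higher and 160 lower) stayed called with each array left out, and 29 with slide as a term. Their median size was 0.41 over all arrays and 0.33 within slide 1. The total of 3573 was 394 without Rspo2 replicate 3, 512 without BSA replicate 1, 700 without BSA replicate 3, 1003 without BSA replicate 2 and 1294 without Rspo2 replicate 2. Without Rspo2 replicate 1, which leaves no slide with both groups, 3334 probes were called, and in 3128 of them the array left out lay beyond the BSA range on the same side. The calls and that range use the same 3 BSA arrays, so nothing is read from this count.

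**Figure D4:**
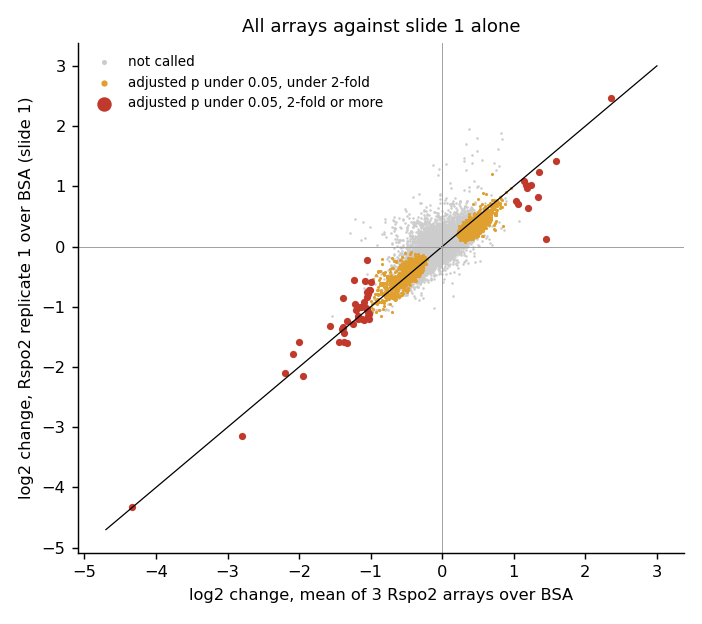
The log2 change of each of the 20554 probes within slide 1 (Rspo2 replicate 1 over the mean of BSA) is plotted against the change over all 3 Rspo2 arrays, which includes that replicate; grey probes were not called, orange ones were called below 2-fold and red ones at 2-fold or more. Most red points lie near the diagonal, and *Slc16a8*, at 1.45 over all arrays and 0.13 within slide 1, lies farthest below it among the rises.

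Probes of the same gene did not always move together. Of the 41 probes lowered 2-fold, 14 belonged to genes with another probe above background on all 6 arrays, and in 12 of these the other probe was brighter. The brightest other probe was called in the same direction for 3 of the 14: both probes of *Ccl7*, and *Adamts7*, a matrix protease, whose probes changed by -1.03 and -0.79. For *Slirp*, a mitochondrial RNA-binding protein, the probe that fell had log2 signals of -1.04, -1.06 and -1.07 with BSA and of -3.20, -2.89 and -2.92 with Rspo2 (-1.95 ± 0.12, SE, adjusted p = 2.52e-05). That probe had a mean signal of 311 units, and a probe of 14890 units for the same gene changed by 0.37 (adjusted p = 0.0673). *Fubp1*, *Rnpc3*, *Hnrnpr*, *Bcl10*, *Tnks* and *Rps13* gave the same contrast, with changes of -1.38, -1.24, -1.24, -1.09, -1.998 and -1.03 at the dimmer probe and of -0.11, 0.09, 0.26, 0.23, 0.05 and 0.31 at the brightest one. Among falls below 2-fold, *Tardbp*, *Sod1* and *Nop56* changed by -0.76, -0.91 and -0.74 at probes of 376, 194 and 593 units, and by 0.15, 0.29 and 0.0033 at probes of 10205, 55796 and 16361 units. The rise of 1.18 for *Nfe2l2* was at a probe of 69.6 units, and its probes of 13931 and 9046 units changed by 0.08 and 0.03. *Srr*, serine racemase, fell by 0.9998 at a probe of 180.1 units, while its probe of 1167 units changed by 0.07 (adjusted p = 0.516). Further *Srr* probes of 480, 241 and 129 units changed by 0.37, -0.38 and -0.05 (adjusted p = 0.034, 0.0417 and 0.758). For these genes after *Adamts7*, no brightest probe was called in the direction of the dimmer one, and those of *Hnrnpr* and *Rps13* were called higher (adjusted p = 0.0441 and 0.0472). The other falls named by size or p were *Wdr38* (-1.45), *A430085C19* (-1.40) and *3021401N23Rik* (-1.38) at probes under 150 units, and *LOC639396* (-0.90), *Dido1* (-0.86) and *Gdap10* (-0.74) at probes of 713 to 849.6 units. Brighter probes of *Dido1*, of 2510 and 954 units, changed by -0.33 and -0.38 (adjusted p = 0.064 and 0.0205). Where the probes lie in their transcripts was not analysed here.

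Signal set a further limit. Of the 41 probes lowered 2-fold, 16 had a mean signal under 150 units and 8 one over 1000 units. The latter were probes of *Lcn2*, *C3*, *Cxcl5*, *Ccl7* (both), *Ccl2*, *Ltbp2*, a protein of microfibrils, and *Edc4*, a protein of mRNA decapping; these names were listed after their values were seen. A further 21 probes with an adjusted p under 0.05 were well above background on all BSA arrays and on no Rspo2 array, and 4 the reverse. Those with large bounds besides *Saa3* included *Clic3*, a chloride channel protein, at least 2.65-fold lower, *Zfp553* at least 2.62-fold and *Cdkl1* at least 2.16-fold lower. The latter pair turned to 0.015 and 0.24 on the log2 scale after normexp background correction. In the other direction the keratin-associated protein *Krtap1-5* was at least 2.31-fold higher and *F11* and *Nanog* at least 2.06-fold higher. Of these, *F11* had Rspo2 signals spread from -5.60 to -2.07.

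For a few genes the change with Rspo2 differed from that with Wnt3a. Of those named below, *Hsd11b1*, *Agt* and *Lgr6* were called over BSA in opposite directions with Rspo2 and with Wnt3a. Comparisons of each treatment with BSA use the same 3 BSA arrays, so the direct test of Wnt3a against Rspo2 is given. *Inmt*, which rose by 1.15 with Rspo2, had a change of -0.13 with Wnt3a over BSA (adjusted p = 0.424) and of -0.66 with both proteins (adjusted p = 0.00137). Wnt3a was 1.27 lower than Rspo2 (SE 0.11, adjusted p = 0.000658), and 1.32 lower within slide 2, which held arrays of both groups (adjusted p = 0.0129 with slide as a term). *Hsd11b1*, the enzyme that regenerates active glucocorticoids, had log2 signals of -0.81, -0.74 and -0.73 with BSA and of -0.10, 0.00 and 0.01 with Rspo2, a rise of 0.73 (SE 0.12, adjusted p = 0.00886). Its changes over BSA were -0.36 with Wnt3a and -1.87 with both, and Wnt3a was 1.10 lower than Rspo2 (SE 0.12, adjusted p = 0.00193; 1.07 lower within slide 2). *Agt*, the precursor of angiotensin, rose by 0.54 with Rspo2 (SE 0.15, adjusted p = 0.0344) and changed by -0.77 and -2.16 in the other groups. The rise of *Agt* was called without BSA replicate 3, but with no other array left out (adjusted p from 0.0605 to 0.116), whereas Wnt3a was 1.31 below Rspo2 (SE 0.15, adjusted p = 0.00209).

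For *Lgr6* and *Fam180a*, Wnt3a was 0.87 and 0.85 below Rspo2 (adjusted p = 0.00358 and 0.00353), and 0.93 and 0.90 below it within slide 2. Over BSA, *Lgr6* changed by -0.39 with Wnt3a (adjusted p = 0.0206) and *Fam180a* by -0.05 (adjusted p = 0.772). *Sema3c*, a guidance ligand also named after its values were seen, fell by 0.76 with Rspo2 (SE 0.09, adjusted p = 0.0023), from 0.11, 0.17 and 0.35 to -0.60, -0.51 and -0.54. With Wnt3a it changed by 0.01 over BSA (adjusted p = 0.925), and the difference of 0.78 between the proteins passed the test (SE 0.09, adjusted p = 0.00269). The glucocorticoid and FoxO list to which *Hsd11b1* and *Agt* belong had 4 rises and 1 fall among 17 genes with Rspo2, beside the 14.9% and 5% of all genes.

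Of the 53 probes changed 2-fold or more by Rspo2, 8 differed between Wnt3a and Rspo2 in the direct test, *Inmt* among them, as did 1.48% of all 20554 probes. The 53 were chosen on Rspo2 arrays that this test also uses, so nothing is read from that count. For *Lcn2*, Wnt3a was 1.55 below Rspo2 (SE 0.13, adjusted p = 0.000472), for *Oas2* 0.76 below (SE 0.15, adjusted p = 0.035), and for *Il33* 1.11 above (SE 0.09, adjusted p = 0.000377). For *Cxcl5*, *Ccl2* and *Zc3h12a* the differences were -0.05 (SE 0.08), -0.04 (SE 0.12) and -0.17 (SE 0.19), with adjusted p of 0.82, 0.89 and 0.714, which does not show that the proteins acted alike. *Tcf7* was 0.95 higher with Wnt3a than with Rspo2 (SE 0.12, adjusted p = 0.00482), *Klf5* 0.62 (adjusted p = 0.0378), *Spry1* 0.56 (adjusted p = 0.0252) and *Edn1* 0.63 (adjusted p = 0.00915). For *Znrf3* and *Apcdd1* the differences of 0.53 and 0.41 did not pass (adjusted p = 0.244 and 0.125).

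**Figure D5:**
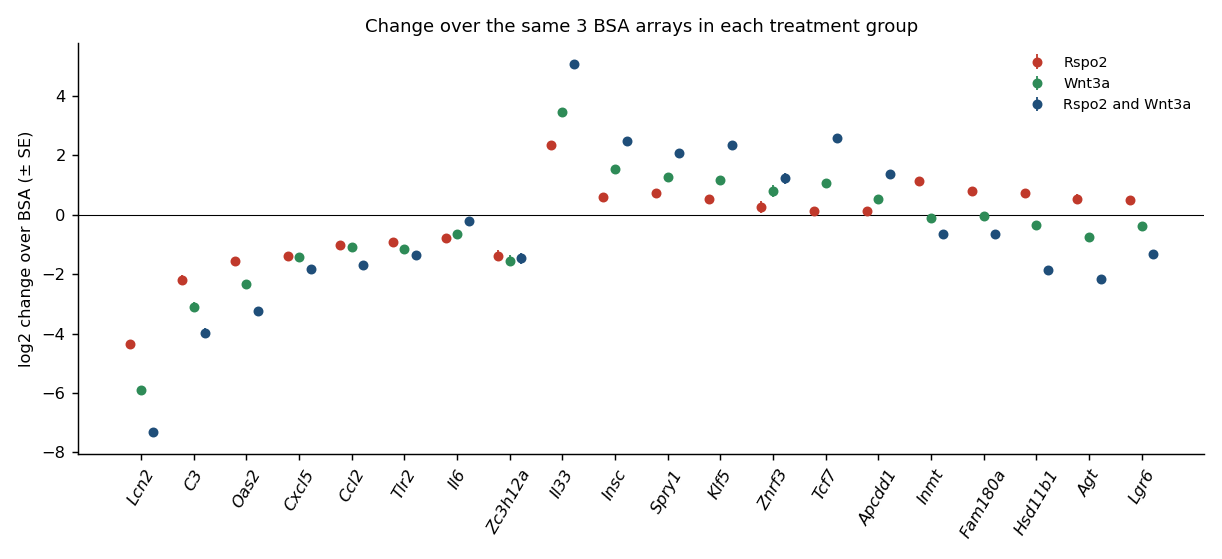
The log2 change over BSA, with its standard error, is plotted for 20 genes with Rspo2 (red), Wnt3a (green) and both (blue); all changes share the same 3 BSA arrays. *Inmt*, *Hsd11b1*, *Agt*, *Lgr6* and *Fam180a* lie above 0 with Rspo2 and below it in the other groups, though *Inmt* and *Fam180a* were not called with Wnt3a (-0.13 and -0.05). The innate immune genes on the left lie below 0 throughout, and *Tcf7* and *Apcdd1* lie near 0 (0.12 each) with Rspo2 only.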

How the data were processed

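RNA of 3 BSA and 3 Rspo2 monolayers was hybridized in a single color to arrays that the authors scanned and read with Agilent Feature Extraction 9.5.3.1, per the labels. The deposited intensity values are background-subtracted signals not scaled between arrays. The deposited value table holds ratios, each signal divided by the 75th percentile of its array by the authors, and was used as an alternative. Spots flagged by the scanner software as non-uniform or outlying (1327 of 520548 values) were not used. Spots of a probe were averaged, and the log2 value of the array's 75th percentile was subtracted; no signal was saturated. Signal over background and the 3 arrays per group limit precision. Probes were named by accession through the GRCm38.p6 annotation (22951) or by the symbol of the files (11530); 6693 had no symbol.

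The fit used limma 3.58.1 (R 4.3.3) and took in all 12 arrays (8 residual and 2.74 prior degrees of freedom). P-values were adjusted over the 22751 probes that some group detected well above background on each of its 3 arrays, and calls were counted over probes above background on all 6 arrays. A probe counted as well above background when at least 0.5 of its spots were. Of the 20554 probes, 23 lacked a value on some array and were fitted without it. A list was described by 1 probe per gene, the brightest.

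Genes were named by rule: the 12 largest rises and falls of 2-fold or more without overlap (10 rises met this), the 8 rises and falls below 2-fold with the smallest p, up to 5 genes each way detected in 1 group alone, up to 4 members of each of 22 lists by size, and all Wnt feedback and receptor genes. Any other gene named was chosen after its values were seen. Some genes that the rule or the lists take in are not reported here. The comparison, the lists and the named-gene rule were chosen with earlier results of these data known. The fit was tested on simulated data. Alternatives were normexp background correction, other scalings, other filters on dim probes, the deposited ratios, a fit of 6 arrays, other variance models, the methods' t-test, terms for slide and for replicate number, and leaving out each of the 6 arrays. The build of the array design is not given in the sources used here, so no probe positions are given. Tables and figures were made in Python 3.11.15 with pandas 2.3.3 and matplotlib 3.10.9.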

Additional observations from a re-analysis of the deposited data

How the results depend on the processing

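The count of 3573 probes with an adjusted p under 0.05 was 4 after normexp background correction, 166 with no filter on dim probes, 1121 in a fit of the 6 arrays alone, 2075 with slide as a random block, 61 with slide as a fixed term and 2 by the methods' t-test after Benjamini-Hochberg adjustment. The 53 probes of 2-fold or more became 3 with normexp, 147 and 158 when probes detected in either group or merely positive and significant were counted, 32 with slide fixed and 2 by that t-test. With each array left out the counts ran from 394 (without Rspo2 replicate 3) to 3334 (without Rspo2 replicate 1), and from 38 to 89. The other settings, apart from the replicate block given next, left both counts within 1.5 times. With normexp 5 of the 53 probes turned direction, as did *Kremen1* to 0.22, *Serping1* to 0.10, *Abca1* to 0.15, *Cdkl1* to 0.24 and *Zfp553* to 0.015, and the 5th percentile of signal on BSA replicate 1 and Rspo2 replicate 2 stood at -1.75 and -0.67 against -2.92 to -2.76 on the others. The cause of the other shifts was not tested. Of 38 genes named for size or p, 33 kept their call under 21 of the 24 alternatives, all but normexp, that t-test and slide as a fixed term, and 19 kept it with slide fixed.

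With the replicate number as a block 681 probes were called, 43 of them at 2-fold or more. Deviations of BSA and Rspo2 arrays with the same number correlated at 0.20, 0.02 and 0.02, and the first of these pairs also shared slide 1. For arrays of different number the correlations ran from -0.24 to 0.22. These few values do not settle whether the numbers pair the samples.

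Dim probes limit these results too, since 16 of the 41 falls of 2-fold or more had under 150 units, and the slide term rests on 1 Rspo2 array.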
